A study of Mus musculus with 6 samples.

Results

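The array measured RNA with 65956 probe sets, each built for 1 transcript cluster, and 33142 of them are not listed with a gene symbol in the array's probe-to-gene annotation. These unnamed probe sets were selected by that absence alone, with no use of their signal, and the other 32814 probe sets with a symbol, of which 31293 matched 1 current RefSeq gene, served as the comparison. An unlisted probe set is unnamed here, which does not mean that no gene lies beneath it. By their IDs, 33020 of the unnamed probe sets carry TC and a chromosome, 101 carry a scaffold that is unplaced or not ordered within its chromosome, and 21 carry TSUnmapped. All IDs end in .mm.1, which is left out below.

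The cells were mouse bone marrow LSK cells (lin-, Sca1+, cKit+), a sorted population that holds haematopoietic stem cells and early multipotent progenitors. The 3 KO arrays came from animals homozygous for a floxed exon 4 of Ash2l that also carried MxCre, a Cre recombinase under the interferon-inducible Mx1 promoter. The 3 control arrays came from animals with the same floxed alleles and no Cre. Both groups received 3 injections of the inducer on days 1, 3 and 5, named poly(dIdC) in the sample labels, and marrow was taken on day 10, so the controls share the inducer but not the recombinase. The labels call the 3 arrays of a group biological replicates without saying whether an array is 1 animal or a pool, and the p-values below measure the spread between these samples. In bulk RNA, fewer cells of a type and less RNA per cell cannot be told apart.

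Whole-transcriptome arrays include many clusters outside the classic gene catalogue, among them long non-coding RNAs, antisense transcripts, stretches within introns, and copies of repeated sequence. Ash2l encodes a core subunit of the KMT2 complexes, which methylate lysine 4 of histone H3, a mark found at promoters and, in its monomethylated form, at enhancers. Non-coding transcription is frequent around both kinds of element, often beside a coding gene that is active in the same cells.

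The Ash2l probe set read 9.65, 9.63 and 9.65 in KO and 10.76, 10.57 and 10.23 in control (log2 signal), a difference of -0.88 ± 0.15 (SE, limma adjusted p = 0.198). Every KO array lay below every control array; which exons its probes cover is not given in the sources used here. One array stood apart: over the 33142 unnamed probe sets, control replicate 3 correlated with the KO arrays at r = 0.987, 0.989 and 0.988 and with control replicates 1 and 2 at r = 0.983 and 0.980. For the interferon response genes (9 of 10 measured), the median signal relative to each gene's mean was 0.47 in control replicate 3, -1.06 and -1.33 in the other controls and 0.53 to 0.64 in KO. For the B cell genes (5 of 6 measured) it was -1.58 in control replicate 3, 2.23 and 1.61 in the other controls and -1.66 to -0.22 in KO. Megakaryocyte genes (5 of 6 measured) stood at 0.64 in control replicate 3. The other controls stood at -0.93 and -0.88 and KO at 0.12 to 0.46. Mitosis genes (9 of 10 measured) stood at -0.10 in control replicate 3. The other controls stood at 1.51 and 0.75 and KO at -0.99 to -0.49. Of 9 measured mitosis genes, 5 passed the criterion given below as lower in KO, with a list median of -1.35. Not every list placed control replicate 3 with KO. Granulocyte genes (12 measured) stood at -1.24 in control replicate 3, 0.18 and -0.08 in the other controls and -0.04 to 0.99 in KO. LSK genes (8 of 9 measured) stood at 0.77, then -0.10 and -0.64, then -0.18 to 0.06. The part of these differences in the results below was not tested, and results are given with and without control replicate 3 where they rest on it.

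Unnamed probe sets were dimmer than gene-named ones. Their median signal was 5.77 (quartiles 4.82 and 7.57) against 6.47 (5.21 and 8.95), and 9.63% of them had a mean signal above 10, against 16.9% of gene-named probe sets. The array medians over the unnamed probe sets lay between 5.72 and 5.80. The deposited values were already scaled together across arrays, so these medians cannot show whether an array shifted the class. Unnamed probe sets also varied more between replicates: the median SD was 0.18 in KO and 0.21 in control, against 0.13 and 0.17 for gene-named probe sets. In the brightest of 10 equal bins of all probe sets by mean signal, the median control SD was 0.32 for unnamed and 0.25 for gene-named probe sets. Of the unnamed probe sets, 827 shared all 6 values exactly with another probe set, so the 33142 members hold 32522 distinct sets of values.

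**Figure D1:**
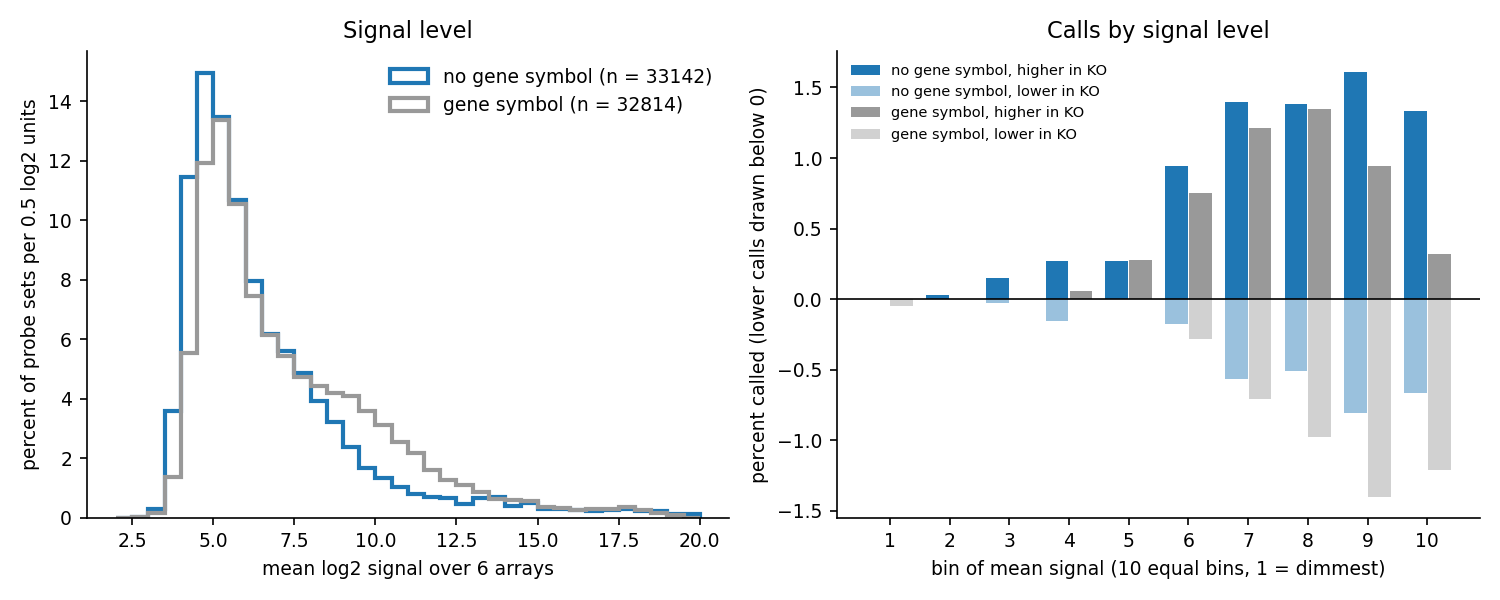
Left, percent of probe sets per 0.5 log2 units of mean signal over 6 arrays, for 33142 probe sets without and 32814 with a gene symbol; the unnamed curve sits further left, with medians of 5.77 and 6.47. Right, percent of each class called higher (above 0) or lower (below 0) in KO within 10 equal bins of all probe sets ordered by mean signal; in the brightest bin 1.33% of unnamed probe sets were called higher and 0.666% lower, against 0.321% and 1.21% of gene-named ones.

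The median KO minus control difference over the unnamed probe sets was -0.02, against -0.03 for gene-named probe sets and -0.03 for all, and 90% of the unnamed values lay between -0.45 and 0.52. At over 2-fold and an unadjusted limma p under 0.01, 216 unnamed probe sets were higher in KO (0.652%, against 0.593% of all probe sets) and 82 were lower (0.247%, against 0.393% of all). The 216 hold 212 distinct sets of values, and the 82 hold 82. TC1200000534, TC0300000073, TC0500000574 and TC0800001607 share the same 6 values, so they are not separate measurements. Called in either direction were 298, or 0.899% of the class, against 0.986% of all probe sets, so the share called was near the background. Of the unnamed calls, 72.5% were higher in KO, against 60.2% of all calls and 49.7% of the 352 gene-named calls (175 higher, 177 lower). That split was 62.8% against 55.7% without control replicate 3 and 58.5% against 45.2% without control replicate 1. All 298 called probe sets had KO and control arrays that did not overlap; among all unnamed probe sets, 2154 (6.5%) had every KO array above every control array and 2385 (7.2%) every KO array below, against 6.15% and 9.15% of all probe sets.

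No unnamed probe set reached an adjusted p under 0.05 with limma and Benjamini-Hochberg adjustment over all 65956 probe sets (0% of all), although 1853 were higher and 1554 lower at an unadjusted p under 0.05, against 5.09% and 5.8% of all probe sets. The per-probe-set Student's t-test also gave 0, quantile normalization 2 and array weights 3. Control replicate 3 decided this count: without it, 879 unnamed probe sets passed (549 of them higher), as did 1453 gene-named ones. Among the 216 higher calls, control replicate 3 was the control nearest to KO in 163, and its signal covered a median of 47.6% of the gap from the other controls to the KO mean. Among the 82 lower calls it was the nearest in 66, covering 44.8%. Without that array 197 of the 216 and 81 of the 82 were still called in the same direction, and 161 and 71 of them had an adjusted p under 0.05. These probe sets were picked from the same arrays. Leaving out the control nearest to KO enlarges a difference, so the counts are no independent check of the calls. Without that array, 2.78% of all unnamed and 3.54% of all gene-named probe sets were called.

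**Figure D2:**
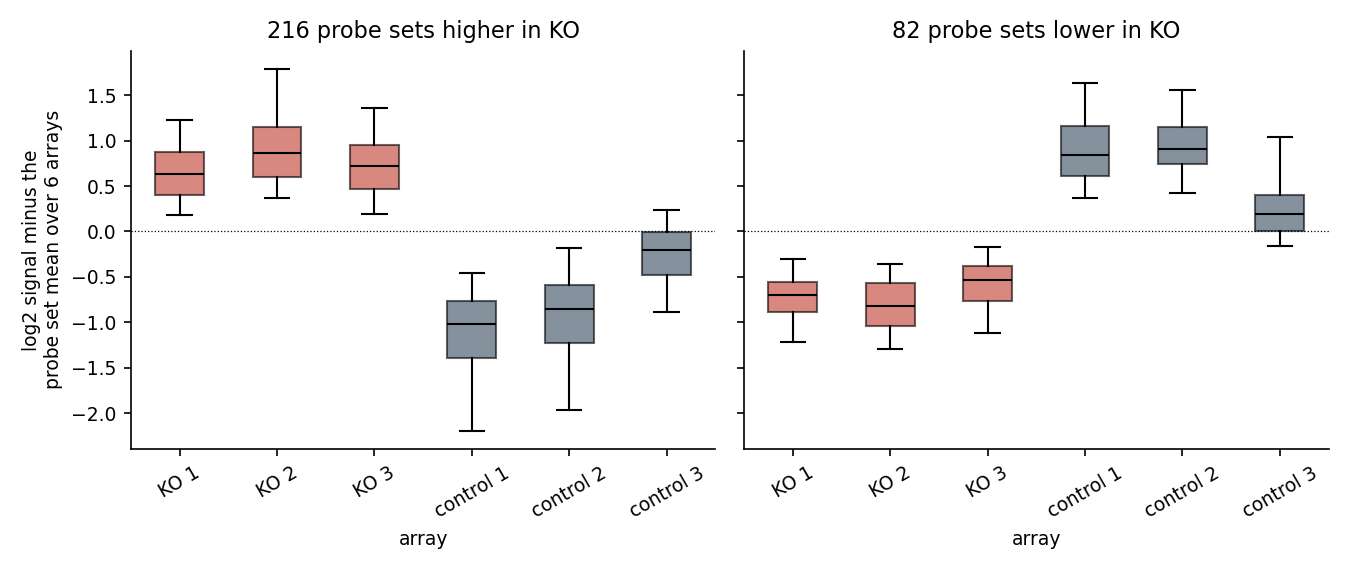
Log2 signal minus each probe set's mean over 6 arrays, per array, for the 216 unnamed probe sets called higher and the 82 called lower in KO; boxes show quartiles and median, whiskers the 5th and 95th percentiles. Control 3 lies between the other controls and the KO arrays in both panels.

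The direction of the calls differed between unnamed and gene-named probe sets mainly in the brightest bins of signal. In the ninth bin of signal, 36 unnamed probe sets were higher and 18 lower, against 41 and 61 gene-named ones. In the brightest bin the counts were 34 and 17 for unnamed and 13 and 49 for gene-named probe sets. Weighting the bins as the gene-named probe sets fill them gave 1.16% of unnamed probe sets called, 0.825% higher and 0.334% lower. The gene-named probe sets had 1.07% called, 0.533% higher and 0.539% lower. By kind of RefSeq gene, 110 protein-coding probe sets were higher and 116 lower. Long non-coding RNA probe sets gave 27 higher and 4 lower of 3428 (0.904% called, against 0.986% of all probe sets). Their median signal of 5.53 lies close to that of the unnamed class. Transcribed pseudogenes gave 8 higher and 1 lower, pseudogenes 9 and 8, and snRNAs 5 and 0. More were lower among V segments (5 higher and 14 lower), probe sets without 1 RefSeq match (7 and 24), miRNAs (1 and 3) and snoRNAs (1 and 4).

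Calls were spread over the chromosomes, with more higher than lower calls among unnamed probe sets on 15 of the 21 chromosomes that hold at least 100 of them, and among gene-named probe sets on 11. The share called was highest on chromosome 6 (1.47% of 1834, 19 higher and 8 lower) and lowest on Y (0 of 300). The gene-named probe sets of those chromosomes had 2.29% (21 higher and 19 lower) and 0 of 258, so neither end of the range was particular to the unnamed class. Chromosome 6 also had the highest share of higher calls (1.04%), and chromosome 12 the highest share of lower calls (0.692%, 10 of 1445 against 5 higher), beside 11 lower and 9 higher among its 1174 gene-named probe sets. The median difference ranged only from -0.05 on Y to 0 on chromosomes 18 and 19.

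**Figure D3:**
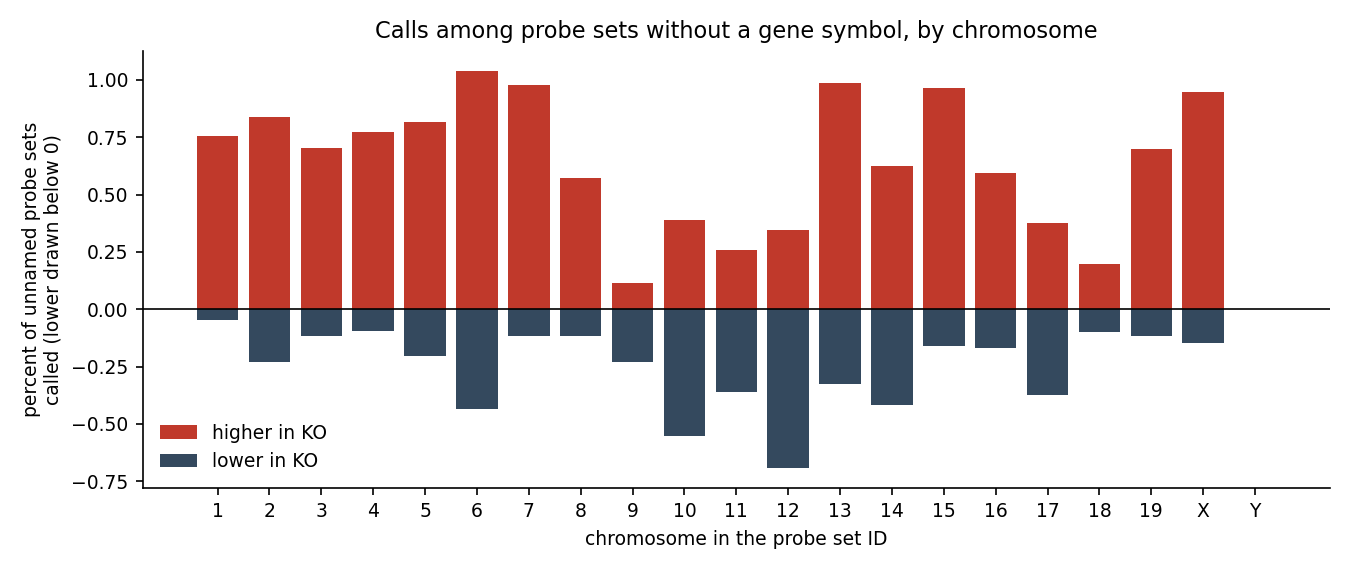
Percent of unnamed probe sets called higher (above 0) and lower (below 0) in KO, by the chromosome in the probe set ID, for the 21 chromosomes with at least 100 unnamed probe sets. Chromosome 6 has the highest share of higher calls at 1.04%, chromosome 12 the highest share of lower calls at 0.692%, and Y has none.

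Along a chromosome the ID numbers followed RefSeq gene order, first through genes of the plus strand and then through genes of the minus strand. Of gene-named probe sets with a known strand, 97.1% to 99.1% lay in its block on the autosomes other than 18 and on X. The border between blocks was set where this share was highest. On these chromosomes 97.6% to 99.7% of steps ran in order of gene start. On Y the shares were 81.2% and 74.2%. No strand was known on chromosome 18, so its order was not checked and its probe sets were not split into blocks. Each unnamed probe set could therefore be described by the gene-named probe sets before and after it in number, using the RefSeq assembly GRCm38.p6 for names and order only. This was possible for 32494 of them, and a flanking gene says where a probe set lies, not that it belongs to that gene.

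The largest increases lay on chromosome 4 between Tox, a transcription factor of T cell and innate lymphoid development, and Car8, a carbonic anhydrase-related protein. TC0400002166 read 10.37, 12.11 and 11.42 in KO and 7.0, 6.86 and 9.57 in control, a difference of 3.49 ± 0.78 (SE, 11.2-fold, adjusted p = 0.258). TC0400002168 read 11.23, 12.45 and 12.29 in KO and 7.44, 8.0 and 10.46 in control, a difference of 3.36 ± 0.77 (adjusted p = 0.263). In both, the KO arrays lay above all controls, as the rule that picked them required, and control replicate 3 lay between. Without it, the differences were 4.37 and 4.27, with adjusted p = 0.0108 and 0.0076. Without KO replicate 2 or 3 or control replicate 1 or 2, neither passed the unadjusted limit of 0.01, at differences of 3.01 to 3.43 and 2.76 to 3.21.

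All 14 unnamed probe sets between Tox and Car8 had a higher KO than control mean, by 0.02 to 3.49 (median 2.45), and 10 of them were called higher. They include one of the 2 longest runs of consecutive called numbers, TC0400002164 to TC0400002168 (5 probe sets, 2.51 to 3.49), and another of 3, TC0400002160 to TC0400002162 (2.14 to 2.60). Tox itself read 11.10, 11.77 and 11.32 in KO and 8.62, 7.81 and 10.62 in control (2.38 ± 0.66, adjusted p = 0.306), and Car8 differed by 1.61 ± 0.61 (adjusted p = 0.419). In the opposite strand's numbering, TC0400000042 (2.34) and TC0400000043 (1.69) lay between Gm11802 (2.40) and 8430436N08Rik (1.42), 2 non-coding loci whose RefSeq starts fall in the same interval. The increase thus covered named and unnamed probe sets of both number blocks, with control replicate 3 nearer to KO than the other controls in Tox, Gm11802 and 8430436N08Rik.

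A second group of increases lay on chromosome 5 around 4930558F17Rik and 1700003C15Rik. TC0500001954 read 9.92, 10.42 and 10.70 in KO and 6.49, 6.76 and 8.83 in control (2.99 ± 0.60, 7.93-fold, adjusted p = 0.233), and TC0500001959 read 9.65, 10.64 and 10.66 against 6.82, 7.10 and 8.69 (2.78 ± 0.52, adjusted p = 0.216). Both separated the groups without overlap, which the rule that picked them required. From 4930558F17Rik to Gm10481, 7 of the 9 unnamed probe sets were called higher, 5 of them in the other of the longest runs, TC0500001952 to TC0500001956 (1.80 to 2.99). The 2 probe sets that carry the symbol 4930558F17Rik lie on either side of that run with the same 6 values (difference 2.47), so those 2 are not separate measurements.

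**Figure D4:**
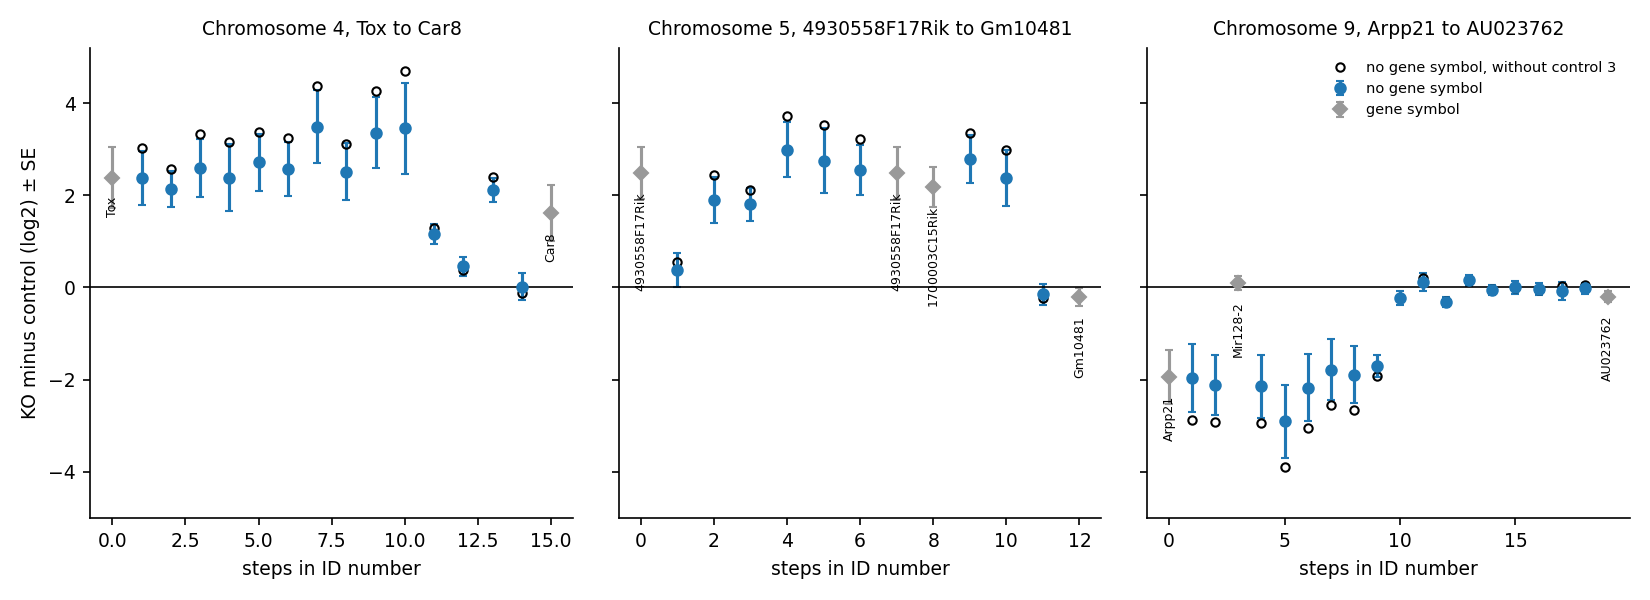
KO minus control (log2) ± SE for each probe set in 3 stretches of consecutive ID numbers, plotted by steps from the first gene-named probe set; filled blue circles are unnamed probe sets, grey diamonds gene-named ones, and open circles the unnamed values without control 3. Values between Tox and Car8 and around 4930558F17Rik lie mostly at 1.8 or above, those after Arpp21 lie at -1.7 or below for 8 unnamed probe sets, and all 3 stretches end near 0 among their unnamed probe sets.

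The 4 other largest increases lay on chromosomes 1, 19 and X. TC1900001133 read 13.23, 13.36 and 12.68 in KO and 9.62, 10.79 and 10.14 in control (2.91 ± 0.32, 7.50-fold, adjusted p = 0.151); here control replicate 3 lay between the other controls. The probe set sits between Ms4a7 and BE692007 in the Ms4a cluster of membrane protein genes of blood cells, and on the other strand TC1900000218 (2.65, adjusted p = 0.227) lay between Ms4a4c (2.22) and Ms4a4b (2.18). TC0100001021, between Phlpp1 and Serpinb5, read 12.32, 11.45 and 11.87 in KO and 7.79, 7.84 and 11.01 in control (3.00 ± 0.84, adjusted p = 0.309). Its call missed the p limit when any array other than control replicate 3 was left out (differences of 2.45 to 3.21), and was kept without control replicate 3, at a difference of 4.07 (adjusted p = 0.0044). TC0X00000908, between Zxda and Zc3h12b, was the brightest of the 8, at 14.54, 15.74 and 14.92 in KO and 10.32, 13.56 and 12.32 in control (3.00 ± 0.78, adjusted p = 0.287), and its call was lost without any 1 KO array or control replicate 3 (2.66 to 3.26). TC0100000960 read 10.83, 10.55 and 9.66 against 6.46, 7.65 and 8.62 (2.77 ± 0.56, adjusted p = 0.233), and the genes on either side, Gm15427 and Gm26245, differed by 0.11 and 0.26. Between those flanks start St8sia4, a sialyltransferase gene (1.00, adjusted p = 0.258), and 4930598F16Rik (0.65, adjusted p = 0.263), neither of which passed the criterion.

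**Figure D5:**
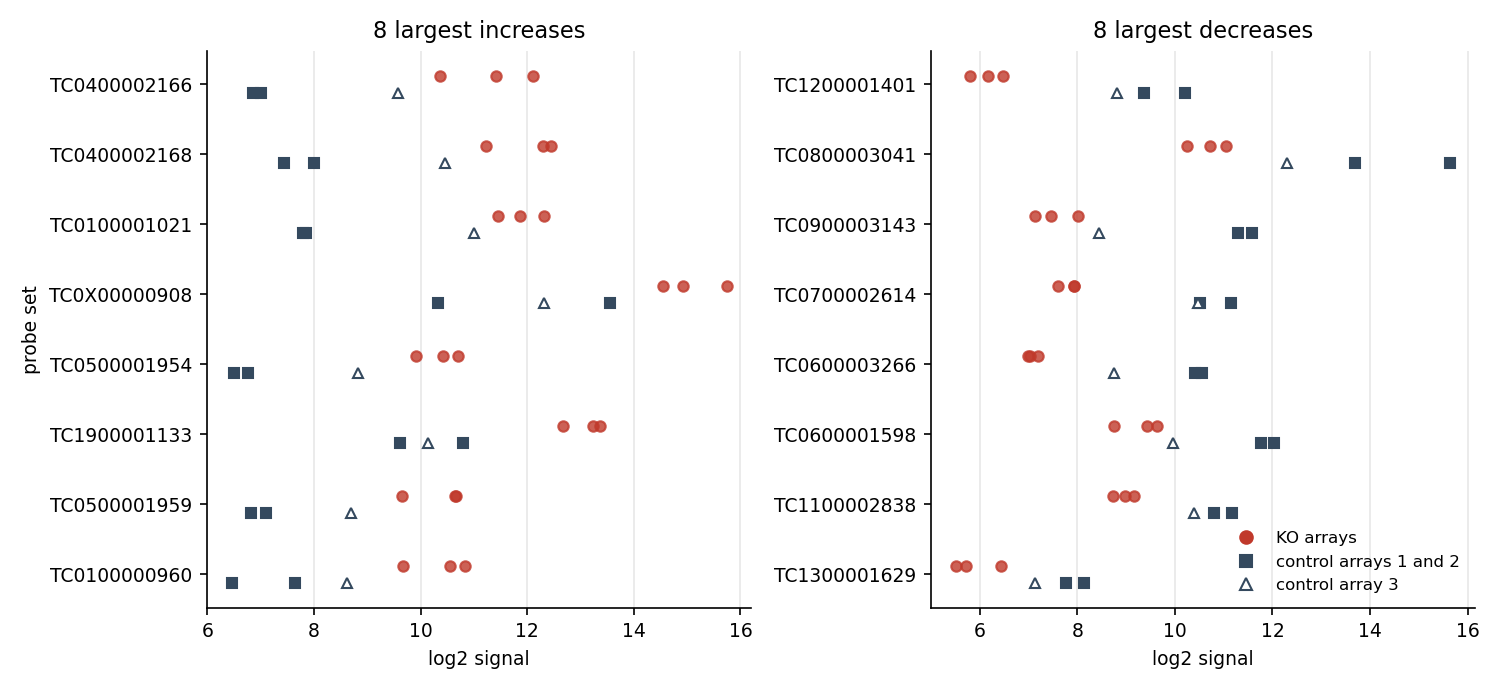
Log2 signal on each array for the 8 unnamed probe sets with the largest increases and the 8 with the largest decreases; circles are KO arrays, squares control arrays 1 and 2, and open triangles control array 3. The rule that picked the 16 required that KO and control do not overlap. In most of them the triangle is the control nearest to the KO arrays.

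The largest decrease was TC1200001401, at 5.80, 6.47 and 6.17 in KO and 10.21, 9.36 and 8.82 in control (-3.32 ± 0.36, 9.96-fold lower, adjusted p = 0.151). It lies between Gm4755 (0.01) and 9930038B18Rik (0.11), and between the same flanks on the other strand starts Sdc1, the plasma cell and early B lineage proteoglycan syndecan-1 (-0.80, adjusted p = 0.191). Next was TC0800003041, at 10.73, 11.04 and 10.25 in KO and 13.70, 15.65 and 12.29 in control (-3.21 ± 0.77, adjusted p = 0.267). It lies between Gins2 and Fendrr, an interval that also holds the start of Irf8, a transcription factor of monocyte, dendritic cell and B cell development, which read 7.56, 7.57 and 7.41 in KO and 9.14, 10.74 and 7.98 in control (-1.77 ± 0.62, adjusted p = 0.389). In TC0800003041 and Irf8 alike, control replicate 2 was highest and replicate 3 lowest among the controls. The call of TC0800003041 was lost without any 1 KO array or control replicate 1, with differences of -3.39 to -2.99.

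On chromosome 9 a stretch beside Arpp21, a phosphoprotein gene whose intron hosts Mir128-2, was lower in KO. TC0900003143 read 7.13, 7.45 and 8.02 in KO and 11.29, 11.58 and 8.45 in control (-2.91 ± 0.80, adjusted p = 0.302), and TC0900003147 read 6.25, 6.39 and 6.47 against 8.60, 7.98 and 7.63 (-1.70 ± 0.24, adjusted p = 0.171). In the first, control replicate 3 was within 0.5 of the highest KO array. Only these 2 of the 17 unnamed probe sets up to AU023762 were called, although the first 8 of them differed by -1.70 to -2.91 and the last 9 by -0.32 to 0.15. Arpp21 differed by -1.94 ± 0.58 (adjusted p = 0.336), and Mir128-2 by 0.10. Without control replicate 3, the difference of TC0900003143 was -3.90 (adjusted p = 0.0049), and its call was lost without any 1 of the other arrays (-3.15 to -2.34).

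The other decreases among the 8 largest differed in their surroundings. TC0700002614, between Erfl and Rabac1, read 7.93, 7.61 and 7.93 in KO and 11.16, 10.51 and 10.48 in control (-2.89 ± 0.21, 7.43-fold lower, adjusted p = 0.0717), with control replicate 3 at the level of replicate 2. TC0600003266, between Gm5582 and Styk1, read 6.99, 7.20 and 7.03 against 10.42, 10.55 and 8.75 (-2.83 ± 0.46, adjusted p = 0.182). Neither flank of that probe set differed by more than 0.28. TC0600001598 (-1.98 ± 0.55, adjusted p = 0.304) and its neighbour TC0600001599 (-1.61) follow Lockd (-1.67, adjusted p = 0.253), a non-coding RNA downstream of the cell cycle inhibitor Cdkn1b. The call of TC0600001598 was lost when any 1 array other than control replicate 3 was left out (-2.17 to -1.59).

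Histone genes flank the remaining 2. TC1100002838, next to H2bu1-ps (-1.29, adjusted p = 0.325), read 9.17, 8.73 and 8.98 in KO and 11.17, 10.80 and 10.40 in control (-1.83 ± 0.22, adjusted p = 0.151). TC1300001629 lies before H2bc9 (-1.40, adjusted p = 0.284) in the large histone cluster of chromosome 13 and read 6.44, 5.71 and 5.51 against 8.14, 7.76 and 7.14 (-1.79 ± 0.33, adjusted p = 0.208). Both separated the groups on all arrays, as the rule that picked them required. Histone genes are transcribed mostly during DNA replication.

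Of the 3 smallest p-values among the unnamed probe sets, one belonged to the decrease of TC0700002614 described above and the others to increases of moderate size with little spread. TC0600001526 read 9.74, 9.64 and 9.76 in KO and 7.77, 7.74 and 7.97 in control (1.89 ± 0.11, 3.70-fold, adjusted p = 0.0528) and lies between Clec2f and Klrb1f (1.07, adjusted p = 0.425), in the natural killer receptor cluster. TC1400001626 read 7.24, 7.37 and 7.24 against 5.47, 5.31 and 5.60 (1.82 ± 0.12, adjusted p = 0.0528), and its neighbour TC1400001625 differed by 2.69 (adjusted p = 0.18). Both lie between Slmap and Appl1. No gene-named probe set had an adjusted p below 0.101.

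Called unnamed probe sets lay beside gene-named ones called in the same direction more often than unnamed probe sets as a whole, though most did not. Of the 211 higher calls that could be placed, 43 (20.4%) had a flanking gene-named probe set that was also called higher, against 0.769% of all 32494 placed unnamed probe sets. Of the 82 lower calls, 16 (19.5%) had a flank called lower, against 0.997%. Runs count the same flank more than once. Flanks called in the opposite direction were near the background. A flank called lower was found for 3 of the higher calls (1.42%, against 0.997% of all placed unnamed probe sets). A flank called higher was found for 1 of the lower calls (1.22%, against 0.769%). For gene-named calls the same-direction shares were 32.9% and 13.1%. Over all placed unnamed probe sets, the difference correlated with that of the nearest gene-named probe set at Pearson r = 0.25 and Spearman rho = 0.18 (n = 32494), and over 18740 pairs of unnamed probe sets with consecutive numbers at 0.38 and 0.25; all share the same 6 arrays, and neighbours can share sequence.

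Few unnamed probe sets lay beside a gene of the 9 marker lists, that is, with such a gene as a flank or starting between the flanks. Of 242 such probe sets, 1 was called higher and 6 lower (2.89%, against 0.902% of all 32494 placed ones). Beside the B cell genes, 3 of 16 were lower and 0 higher, and all 3 belong to 1 interval. They form the only lower run of 3 or more consecutive numbers, TC1200002454 to TC1200002456, in the interval that holds Ighm, the immunoglobulin mu constant region (-1.83 ± 0.47, adjusted p = 0.287). The median of the run read 14.20, 15.03 and 14.59 in KO and 16.36, 16.53 and 15.49 in control, with differences of -1.68 to -1.47, and the groups did not overlap. The B cell list itself had 1 of 5 members lower and a median of -1.66.

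Beside the mitosis genes, 2 of 48 were lower and 0 higher. TC1900000530 (-1.33, adjusted p = 0.224) lies beside Kif11 (-1.71, adjusted p = 0.302) and TC0900003297 (-1.04, adjusted p = 0.236) beside Kif15 (-1.82, adjusted p = 0.263), both mitotic kinesins. Beside the LSK genes, 1 of 61 was lower, TC0500001804 (-1.43, adjusted p = 0.225), in the interval of the cytokine receptor Flt3 (-1.22, adjusted p = 0.244). The higher call was 1 of 27 beside the granulocyte genes, TC0100002579 (2.35, adjusted p = 0.218), near the chemokine receptor gene Cxcr2 (2.19, adjusted p = 0.268). Beside the interferon response genes 0 of 25 were called. So few probe sets cannot be told apart from the 0.902% called among all placed ones. Of the 9 measured interferon response genes, 1 was higher, and the list median was 1.06. Beside the T and NK, erythroid, megakaryocyte, and monocyte and macrophage genes, 0 of 24, 0 of 2, 0 of 18 and 0 of 21 were called.

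The unmapped and scaffold classes gave no call. The 21 unnamed TSUnmapped probe sets had a median signal of 5.32 and a median difference of -0.01. The 101 scaffold probe sets were brighter, at a median of 7.82, with a median difference of -0.08. In the first class the smallest p belonged to TSUnmapped00000056, at 7.85, 7.19 and 7.69 in KO and 7.05, 6.86 and 6.70 in control (0.71 ± 0.20, adjusted p = 0.305), whose groups did not overlap; TSUnmapped00000058 (0.33, adjusted p = 0.332) and TSUnmapped00000054 (0.33, adjusted p = 0.494) followed. Its brightest members, TSUnmapped00000096, TSUnmapped00000095 and TSUnmapped00000051, averaged 19.4, 17.4 and 8.98, so 2 of 21 lay near the top of the scale. Among scaffold probe sets the smallest p belonged to TC1_GL456212_random00000008 (0.59 ± 0.13, adjusted p = 0.26), TC4_GL456216_random00000004 (0.84, adjusted p = 0.263) and TC4_GL456350_random00000005 (-0.79, adjusted p = 0.263). Its brightest members averaged 18.4, 18.4 and 18.3, all from unplaced scaffolds, and differed by -0.01 to 0.35.

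The brightest chromosome probe sets showed no difference between groups at the top of the scale. TC0400001746 and TC0900002348 had the same values on every array, 19.86, 19.89 and 19.62 in KO and 19.88, 19.88 and 19.87 in control, and TC0200003746 differed from them by at most 0.03 on any array. The largest decrease of any size, TC1200002574 beside Ighv2-9, did not pass (-3.61 ± 1.86, adjusted p = 0.547), with KO at 6.37, 10.85 and 9.23 and control at 14.79, 8.37 and 14.12. Those groups overlap and the spread within each spans several units.

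The mitochondrial and Y clusters stood at opposite ends of the signal range. The 19 unnamed mitochondrial probe sets had means between 12.9 and 19.7 (median 16.1) and differences from -0.90 to 0.44, the smallest p being that of TC0M00000020, at 16.87, 16.57 and 16.52 in KO and 17.26, 17.15 and 17.14 in control (-0.53 ± 0.13, adjusted p = 0.273). The 300 unnamed Y probe sets had a median signal of 4.94, and 19 of them exceeded 7. Sex-linked genes split the arrays otherwise than by genotype: Eif2s3y, encoded on Y, read 10.39, 5.81 and 11.17 in KO and 9.40, 11.19 and 11.38 in control, and Xist, transcribed from the inactive X, read 15.78, 16.65 and 7.01 in KO and 16.45, 7.13 and 12.86 in control. Both genes were high on KO replicate 1, control replicate 1 and control replicate 3. TC0Y00000235 read 9.23, 5.34 and 10.26 in KO and 8.92, 10.44 and 10.72 in control, low on the same KO replicate 2 as Eif2s3y, whereas TC0Y00000540 read 16.33 to 17.54 on every array.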

How the data were processed

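RNA of LSK cells (40 ng per sample) was amplified and hybridised by the authors to mouse transcriptome arrays, 3 KO and 3 control. The authors deposited 1 table of log2 values for 65956 probe sets, made per the labels with Affymetrix Expression Console, RMA and Transcriptome Analysis Console. RMA and its signal-space form summarise probes and scale arrays together, and probe sets with shared probes can then carry like values. Array medians lay between 6.02 and 6.09. The number of arrays limits the precision. No genome build is given in the sources used here, so no coordinates are printed, and 0 columns were left unused.

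All values were fitted as deposited with limma 3.58.1 (lmFit and eBayes, R 4.3.3), without filter or block, with Benjamini-Hochberg adjustment over all probe sets. Calls required over 2-fold and an unadjusted p under 0.01. Fold changes are on the log2 signal scale. In a simulation of the KO against control comparison on 65956 probe sets, 25 of 50 log2 changes of 1 and 49 of 50 changes of 2 were called, as were 90 of 65756 unchanged probe sets. A log2 change of 1 lies at the fold limit itself. The simulated noise was independent between probe sets and arrays, unlike the data, so these counts give no rate of false calls here. Where a gene had several probe sets, its value came from the flanking probe set or, in lists, from the brightest. Symbols were updated through RefSeq (330 changed). Flanks lay under 5 Mb apart.

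Unnamed probe sets were named by rule: the 8 largest increases and decreases among non-overlapping calls with chromosome IDs, the 3 largest in the other classes, and in each class the 3 brightest and the 3 smallest p. The members and lists were chosen with earlier results of these data known. Of the fixed marker lists, the calls and median differences of LSK (8 of 9 measured, 1 lower, median -0.08), granulocyte (12, 2 higher, 0.83), T and NK (8, 2 higher, 0.93), erythroid (3, 0 called, -0.34), megakaryocyte (5, 0 called, 0.63) and monocyte and macrophage genes (6, 1 higher, 0.10) are given in this paragraph only. Counts of unnamed probe sets beside list genes were added after the values were seen. Alternatives were a signal filter, quantile normalization, median centring, other priors, array weights, Student's t-test, blocks, and each array left out.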

Additional observations from a re-analysis of the deposited data

How the results depend on the processing

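The counts of 216 higher and 82 lower unnamed probe sets stayed within 1.5 times under the signal filter, quantile normalization, median centring and the trended prior, and moved under array weights (347 and 160), Student's t-test (54 and 23) and a block on the number in the sample descriptions (447 and 333). With 1 array left out they ranged from 114 to 578 higher and 61 to 343 lower. Leaving out KO replicate 2 gave 114 higher, control replicate 1 gave 121 and KO replicate 3 gave 143; both upper limits came from leaving out control replicate 3. Calls at adjusted p under 0.05 numbered 0, but 2 after quantile normalization, 1 after centring, 3 with array weights and 0 to 879 with 1 array left out, 879 being without control replicate 3. KO replicate 1 shares the number in the sample descriptions with control replicate 1, and KO replicate 3 with control replicate 2. Deviations correlated at 0.16 in both pairs. The highest correlation, 0.28, was between KO replicate 2 and control replicate 3, which share no number. What the number marks is not given. Those 2 arrays have no partner and do not enter the difference of this block. Its counts, and its split of 57.3% higher against 54.1% for gene-named calls, thus also leave out control replicate 3. The share called, 0.899%, ranged from 0.543% (without KO replicate 2) to 2.78% (without control replicate 3) with 1 array left out, and was 0.232% under Student's t-test. The median signal was 7.86 and the median difference 0.0267 among probe sets above the median of all. Replicate numbers of the sample titles did not pair the samples: deviations of same-numbered arrays correlated at 0.16, -0.17 and -0.17, and the replicate block gave 195 higher, 64 lower and 0 at adjusted p under 0.05. Of 488 values of 35 named probe sets under these alternatives, 54 lost the call and 4 gained it. A reversed sign was counted only for probe sets that were calls in the results above, and 0 of their values reversed. Changes of sign in uncalled probe sets were not counted. The cause of the lost and gained calls was not tested. Leaving out unnamed probe sets with another identifier could not be run, because unlisted probe sets carry none here.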
